A study of Mus musculus with 9 samples.

Results

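Genes were sought whose signal in a Gprc5a-knockout airway epithelial line stood apart from a wild-type line on one side and from a knockout lung adenocarcinoma line on the other. A gene was kept when the mean of the 3 knockout arrays lay above, or below, the means of both other lines by at least 1 log2, which is a 2-fold difference in signal. Each gene was read from 1 probe set, the brightest over all 9 arrays among those that carry a single gene symbol. Of 18193 genes, 146 lay above both other lines (0.803%) and 88 lay below both (0.484%), 234 in all. For these genes the tumour line does not share the difference that the knockout line shows from the wild-type line, or shows it to a lesser degree.

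The wild-type line (WT-NLE) and the knockout line (NULL-NLE) are non-tumorigenic epithelial lines, each started from tracheal cells of mice aged 3 weeks, with Gprc5a intact in the first and deleted in the second. A lung adenocarcinoma gave the tumour line, MDA-F471. Its donor was a female that lacked Gprc5a, 16 months after an intraperitoneal injection of the tobacco carcinogen NNK. All the mice were of the strain C57/BL6 x sv129, and each line was hybridised to 3 Affymetrix MG-430 2.0 arrays. The knockout line and the tumour line therefore share the germline loss of Gprc5a, while the tumour line differs from both others in organ, age of the mouse and carcinogen exposure. The tumour line was not grown from the knockout line, so "returned" below describes levels in separate lines and not a course in time. Each group is 1 line, and the labels do not say whether the 3 arrays are separate cultures. The spread between arrays may thus be technical, and line, handling and genotype cannot be told apart.

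Gprc5a encodes an orphan G protein-coupled receptor that retinoic acid induces and that is abundant in lung epithelium. Mice without it develop lung adenocarcinomas late in life and more often after NNK, and the gene is therefore studied as a lung tumour suppressor. Basal cells of the trachea, which express keratins 5 and 14, are the cells that commonly grow out when tracheal epithelium is cultured.

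The probe set of Gprc5a gave log2 signals of 8.63, 8.74 and 8.32 on the wild-type arrays, 7.20, 7.09 and 7.18 on the knockout arrays and 6.96, 7.02 and 7.09 on the tumour arrays. It was lower in the knockout line than in the wild-type line by 1.41 (SE 0.11) on the log2 scale and differed from the tumour line by 0.13 (SE 0.11) (limma adjusted p 1.52e-07 and 0.37). The knockout and tumour arrays, labelled as lacking the gene, were the low ones and did not overlap the wild-type arrays. Whether the probes lie in the deleted stretch is not given in the sources used here, and Gprc5a itself is not among the genes set apart. The knockout line carried the basal keratins 5 and 14 at levels close to those of the wild-type line. Not all basal markers were alike: of 20 measured airway basal cell markers, 6 were lower than in the wild-type line and 0 higher (at least 2-fold, limma adjusted p below 0.05). Krt5 had a knockout mean of 14.38, a wild-type mean of 14.46 and a tumour mean of 8.43, and Krt14 had 14.68, 14.52 and 7.25. The epithelial adhesion gene Epcam read 11.73, 11.74 and 12.03 in the same order. The club cell gene Scgb1a1 (4.93, 4.85 and 4.93) and the leukocyte gene Ptprc (4.41, 4.48 and 4.48) were under the background level in all 3 lines. The alveolar gene Sftpc read 5.74, 5.78 and 5.72, a little over it in all 3. That background level, 5.15 log2, is the 95th percentile over the 27 probe sets for bacterial spike-in and control transcripts.

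Array medians lay between 6.29 and 6.34 log2, and arrays of the knockout line correlated with each other at 0.994 to 0.996, with the wild-type arrays at 0.971 to 0.975 and with the tumour arrays at 0.927 to 0.931 over all genes. The difference between the 3' and 5' beta-actin control probe sets, a sign of RNA integrity, was 0.90 to 0.95 log2 on the knockout arrays, 0.75 to 1.78 on the wild-type arrays and 0.37 to 0.74 on the tumour arrays, so the knockout arrays lay between or within the others. The Y-linked gene Eif2s3y read 8.94, 8.92 and 9.13 on the wild-type arrays and had a knockout mean of 3.35 and a tumour mean of 3.32. Xist had a mean of 11.22 in the tumour line against 7.58 and 7.25 in the others, so the lines differ in their sex-linked transcripts. The part of these differences in the results was not tested.

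**Figure D1:**
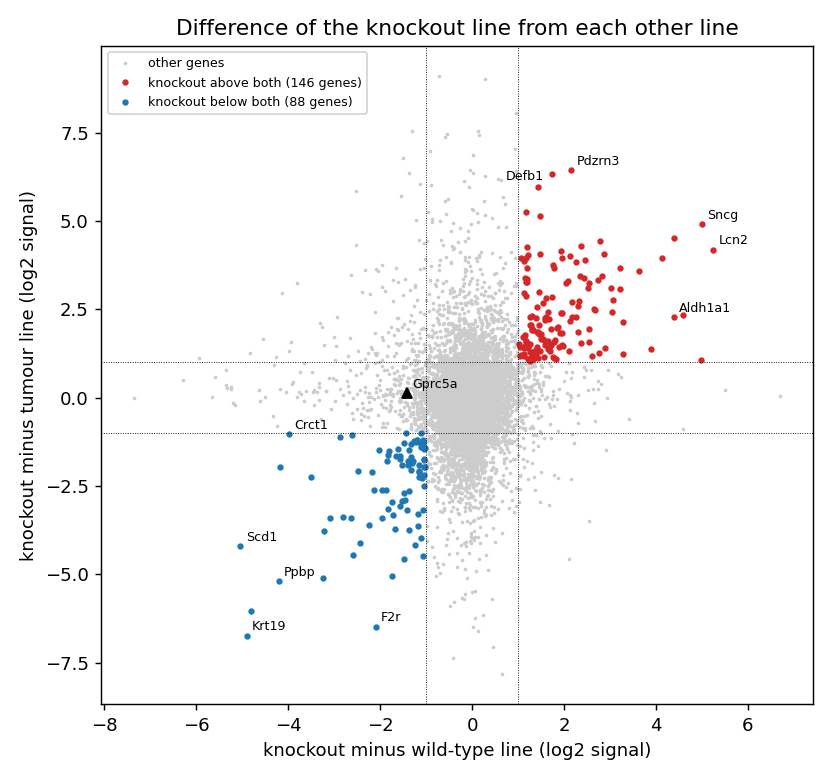
Each point is 1 of the 18193 genes, placed by the knockout minus wild-type difference (x axis) and the knockout minus tumour difference (y axis), both in log2 signal. The 146 genes above both lines are red, the 88 below both are blue, dotted lines mark 1 log2, and Gprc5a (triangle) lies at -1.41 and 0.13.

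One linear model was fitted to all 9 arrays with limma, and a gene counts as higher or lower in a comparison of 2 lines when the difference was at least 2-fold and the p, adjusted by Benjamini-Hochberg across the 18193 genes, was below 0.05. Against the wild-type line, 345 genes were higher in the knockout line (1.9%) and 543 lower (2.98%). Against the tumour line, 1161 genes were higher (6.38%) and 1417 lower (7.79%). These comparisons share the knockout arrays, so a gene that reads high on those arrays counts in both. Every gene that met the 1 log2 rule also passed the adjusted p in both comparisons, the largest being 0.00682 above and 0.00659 below. The rule chose the genes by these same differences, so the differences are given as descriptions with standard errors (SE) from the fit. By the same rule 385 genes lay above and 144 below in the wild-type line, and 1103 and 874 in the tumour line. The knockout arrays did not overlap the 6 others for 146 of the 146 genes above and for 87 of the 88 below. The rule asks for 1 log2 from both lines, so this count largely follows from it and adds no support. No share over all genes is set beside it. The exception was the transcription factor gene Sox11, for which wild-type replicate 3 read 9.60 against 11.62 and 11.62 on the others.

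Most of the genes were near the threshold. The smaller of a gene's 2 differences had a median of 1.47 log2 above and -1.38 below. It was under 1.5 log2 for 80 genes above and 54 below, at least 2 log2 for 36 and 17, and at least 3 log2 for 8 and 7. Just inside the threshold lay Pkia (1.02 from the wild-type line), H2-Ab1 (1.05 from the tumour line) and Spag1 (1.05) above, and Atp8b1 (-1.01), Il18r1 (-1.03) and Plagl2 (-1.03) below. Just outside lay Kctd14 (0.9972), Nupr1 (0.99) and Apobec1 (0.99) above, and Afap1l1 (-0.99), Slc25a32 (-0.99) and Mab21l4 (-0.98) below.

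The gene farthest above both lines was Sncg, which encodes gamma-synuclein, a small protein of neurons that some carcinomas also express. It read 10.33, 10.18 and 10.08 log2 on the knockout arrays, 5.12, 5.26 and 5.22 on the wild-type arrays and 5.53, 5.05 and 5.27 on the tumour arrays. The 3 knockout arrays were high and the 6 others lay close to the background level. In RNA from whole cultures, more cells that express a gene and more RNA per cell cannot be told apart. The knockout mean was higher by 4.996 (SE 0.12) than the wild-type mean and by 4.92 (SE 0.12) than the tumour mean, 31.9-fold and 30.2-fold. The other genes on the list of neural and neuroendocrine markers did not share this: of 14 measured, Sncg alone was set apart. The list's median difference was 0.003 from the wild-type line and 0.02 from the tumour line, beside -0.0042 and 0 over all genes. Outside that list, the neuronal genes Map2 (1.75 and 3.75) and Celf4 (1.11 and 1.73), named after their values were seen, were above both lines.

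Lcn2 encodes lipocalin 2, a secreted protein of innate defence that withholds iron from bacteria by binding their siderophores. Its signal was 10.06, 11.21 and 10.81 on the knockout arrays, 5.54, 5.63 and 5.18 on the wild-type arrays and 6.64, 6.24 and 6.63 on the tumour arrays. The tumour arrays lay a little above the wild-type arrays without overlapping them, and the knockout arrays lay far above both. Lcn2 was 37.8-fold higher than in the wild-type line and 18.3-fold higher than in the tumour line, with differences of 5.24 (SE 0.22) and 4.19 (SE 0.22). Ltf, which encodes the iron-binding defence protein lactoferrin, had the same order of the lines, with 9.37, 10.61 and 10.21 in the knockout line, 6.68, 6.93 and 6.72 in the wild-type line and 7.65, 8.04 and 8.08 in the tumour line. Cp, the copper protein ceruloplasmin that oxidises iron for loading onto transferrin, read 9.22, 9.72 and 9.29 on knockout arrays, 6.12, 6.48 and 6.57 on wild-type arrays and 6.05, 6.35 and 6.55 on tumour arrays, and 6 of its 8 probe sets were set apart. Its knockout arrays were high and its wild-type and tumour arrays overlapped. Slc40a1, the iron exporter ferroportin, went the other way, at a mean of 6.92 ± 0.11 (SD, n = 3) in the knockout line against 7.91, 8.07 and 8.05 on the wild-type arrays and 8.97, 9.17 and 9.45 on the tumour arrays.

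Defb1, an epithelial antimicrobial defensin, was also highest in the knockout line but was close to the background level in the tumour line. Its arrays read 11.45, 11.37 and 11.76 in the knockout line, 9.60, 9.78 and 9.97 in the wild-type line and 5.20, 5.01 and 5.41 in the tumour line, which put it 3.35-fold and 79.8-fold higher in the knockout line. Of the 22 measured genes on the list of iron binding and innate defence proteins, 3 were set apart above (Lcn2, Ltf, Defb1) and 1 below (Slc40a1). Over the whole list 4 of the 22 were higher and 1 lower than in the wild-type line, 4 higher and 4 lower than in the tumour line, and the medians were 0.17 and -0.02. Scara5, a scavenger receptor for ferritin named after its values were seen, was higher by 2.34 (SE 0.17) and 3.44 (SE 0.17). Its other probe set (-0.08 and 0.13) was not set apart.

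**Figure D2:**
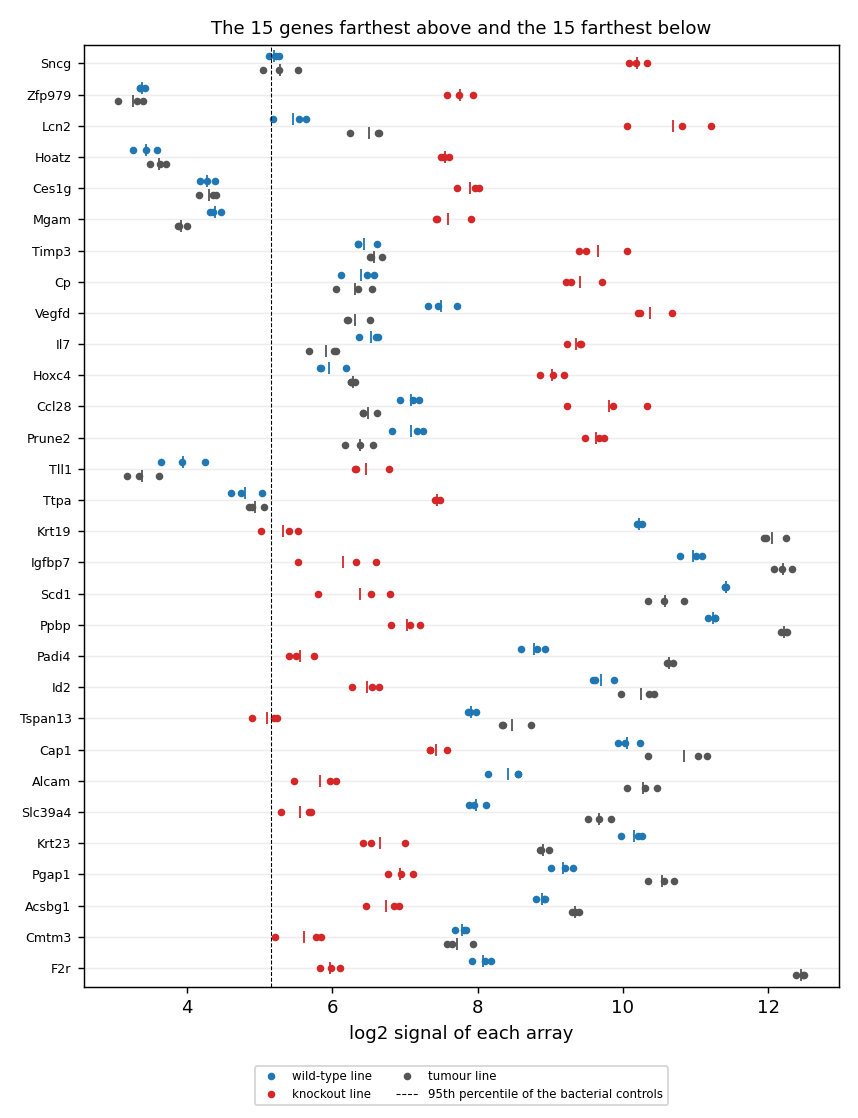
Log2 signal of each array (x axis) for the 15 genes farthest above and the 15 farthest below by the smaller of their 2 differences, with 3 points and a tick at the mean for each line. The red knockout points lie clear of all blue wild-type and grey tumour points in each row, from Sncg (knockout mean 10.20) to F2r (5.97). Genes with clone names and those read from _x_at probe sets were left out, and the dashed line is the 95th percentile of the bacterial controls (5.15).

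Several of the other genes farthest above encode secreted proteins. Timp3, an inhibitor of matrix metalloproteinases and with the surface protease Adam8 (1.19 and 3.67) 1 of the 2 genes set apart among 22 of matrix proteolysis, read 9.40, 10.06 and 9.49 in the knockout line, 6.35, 6.36 and 6.61 in the wild-type line and 6.51, 6.68 and 6.54 in the tumour line, and its 4 probe sets were all set apart. Il7, the cytokine that sustains lymphocytes, read 9.41, 9.42 and 9.24 on knockout arrays, 6.62, 6.37 and 6.60 on wild-type arrays and 6.05, 6.01 and 5.67 on tumour arrays. In both genes the knockout arrays were high and the other lines lay within 1 log2 of each other. Vegfd, a growth factor for lymphatic vessels, was high in the knockout line and lower in the tumour line than in the wild-type line, with 10.67, 10.21 and 10.23 on knockout, 6.20, 6.21 and 6.51 on tumour and 7.71, 7.46 and 7.31 on wild-type arrays, and its 3 probe sets were all set apart. Ccl28, a chemokine of mucosal epithelia, was higher by 2.73 (SE 0.20) and 3.32 (SE 0.20), with the knockout arrays spread from 9.23 to 10.33. Inhbb, the activin and inhibin beta B subunit, was 2.98-fold and 4.6-fold higher, but its other, dimmer probe set (0.58 and 0.70) was not set apart. Smad6, an intracellular inhibitor of bone morphogenetic protein signals, was 4.08-fold and 2.79-fold lower. Of the 30 measured genes of the BMP and TGF-beta pathway, 1 was set apart above and 2 below, the last being Id2, described with the transcription factors.

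For 14 of the 146 genes above, all 6 arrays of the other lines lay under the background level, so only a lower bound of the fold can be given. Among these, Zfp979, a zinc finger gene, read 7.94, 7.57 and 7.75 on the knockout arrays and between 3.05 and 3.42 on the 6 others, at least 6.08-fold higher. Hoatz, a gene of cilia and flagella, read 7.50, 7.60 and 7.54 and was at least 5.27-fold higher. Only the knockout line lay over the background level for either gene. The same held for the carboxylesterase Ces1g (at least 6.74-fold), the maltase Mgam (at least 5.42-fold), the vitamin E transfer protein Ttpa (at least 4.89-fold), the tolloid protease Tll1 (at least 2.49-fold) and the mesenchymal transcription factor Twist1 (at least 2.61-fold). Hoatz was the single gene set apart among 18 measured ciliated cell markers, whose median differences were 0.05 from the wild-type line and 0.16 from the tumour line. Twist1 was the single one among 20 fibroblast markers, with medians of 0.0037 and -0.02. The summed fibroblast signal was 11.66 to 11.98 log2 in the knockout line, 12.20 to 12.50 in the wild-type line and 12.79 to 12.90 in the tumour line, so it was lowest in the line where Twist1 was highest.

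Enzymes that detoxify aldehydes, epoxides and other electrophiles formed a further group above both lines. Aldh1a1, which oxidises retinal to retinoic acid and also other aldehydes, read 10.55, 10.90 and 10.89 on the knockout arrays, 6.10, 6.44 and 6.65 on the wild-type arrays and 8.18, 8.60 and 8.73 on the tumour arrays. All 3 lines were separate for this gene, with the tumour line between, and the knockout line was 20.9-fold above the wild-type line and 4.84-fold above the tumour line. Its neighbour Aldh1a7, a close paralog, read 9.26, 10.13 and 9.73 on knockout arrays, 6.25, 6.88 and 6.88 on wild-type arrays and 6.92, 7.33 and 7.58 on tumour arrays. Signals of such near copies, and of the Gsta, Gstm and Ces1 families named here, are uncertain where probes bind more than 1 of them. Of 21 measured genes of retinoic acid handling, these 2 were set apart above and 0 below. In that list 3 genes were higher and 0 lower than in the wild-type line, 5 higher and 2 lower than in the tumour line, and the medians were 0.10 and 0.18. The retinoic acid receptors Rara (0.25 and -0.45) and Rarb (0.13 and 0.26) were not set apart.

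Aldh3a1, an aldehyde dehydrogenase of cornea and airway, read 11.90, 12.53 and 11.97 in the knockout line, 10.17, 10.10 and 10.26 in the wild-type line and 8.27, 8.17 and 8.12 in the tumour line. Gsta3, a glutathione transferase, read 11.11, 11.34 and 11.50 on knockout arrays, 9.13, 8.77 and 8.97 on wild-type arrays and 7.02, 7.01 and 7.08 on tumour arrays. Both had 3 separate levels, with the tumour line lowest. Ephx1, the microsomal epoxide hydrolase, read 12.11, 12.24 and 12.09 on knockout arrays against 10.32, 10.30 and 10.50 on wild-type and 10.46, 10.66 and 10.59 on tumour arrays, so here the wild-type and tumour lines overlapped. Cyp4b1, a lung cytochrome P450, was 2.33-fold above the wild-type line and 16.5-fold above the tumour line. Mgst1, the microsomal glutathione transferase, was higher by 1.93 (SE 0.11) and 2.39 (SE 0.11), but its other probe set, at about the background level in all lines, was not set apart. With the mean of both probe sets its smaller difference was 0.98 and fell short of the threshold.

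Gstm1, a glutathione transferase of the mu class, lay below both lines, at 7.77, 8.01 and 7.77 on knockout arrays against 10.51, 10.41 and 10.45 on wild-type and 8.72, 9.21 and 8.77 on tumour arrays. Its difference from the tumour line was -1.05 (SE 0.12), and it dropped to -0.89 and out of the set without tumour replicate 2. The enzymes therefore did not move as one. Of 26 measured genes of aldehyde, carbonyl and cytochrome metabolism, 3 were set apart above and 0 below, with 7 higher and 0 lower than in the wild-type line and medians of 0.14 and 0.19. Of 24 genes of the glutathione and NRF2 response, 2 were set apart above and 1 below, and the medians were 0.15 and -0.17. The common NRF2 target Nqo1 differed by -0.35 and -0.69. Further enzymes above both lines, named after their values were seen, were Gstt3 (2.55 and 1.59), Cyp3a13 (1.96 and 1.50), the carbonyl reductase Dcxr (2.10 and 1.32) and the glyoxalase Glo1 (1.26 and 1.51). The probe sets of Glo1 differed: another was set apart (1.73 and 2.08), but those at 0.36 and 1.04 and at 0.51 and 1.51 were not. Malic enzyme Me1, which makes NADPH and is also a known NRF2 target, lay below, at -1.86 and -2.61.

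**Figure D3:**
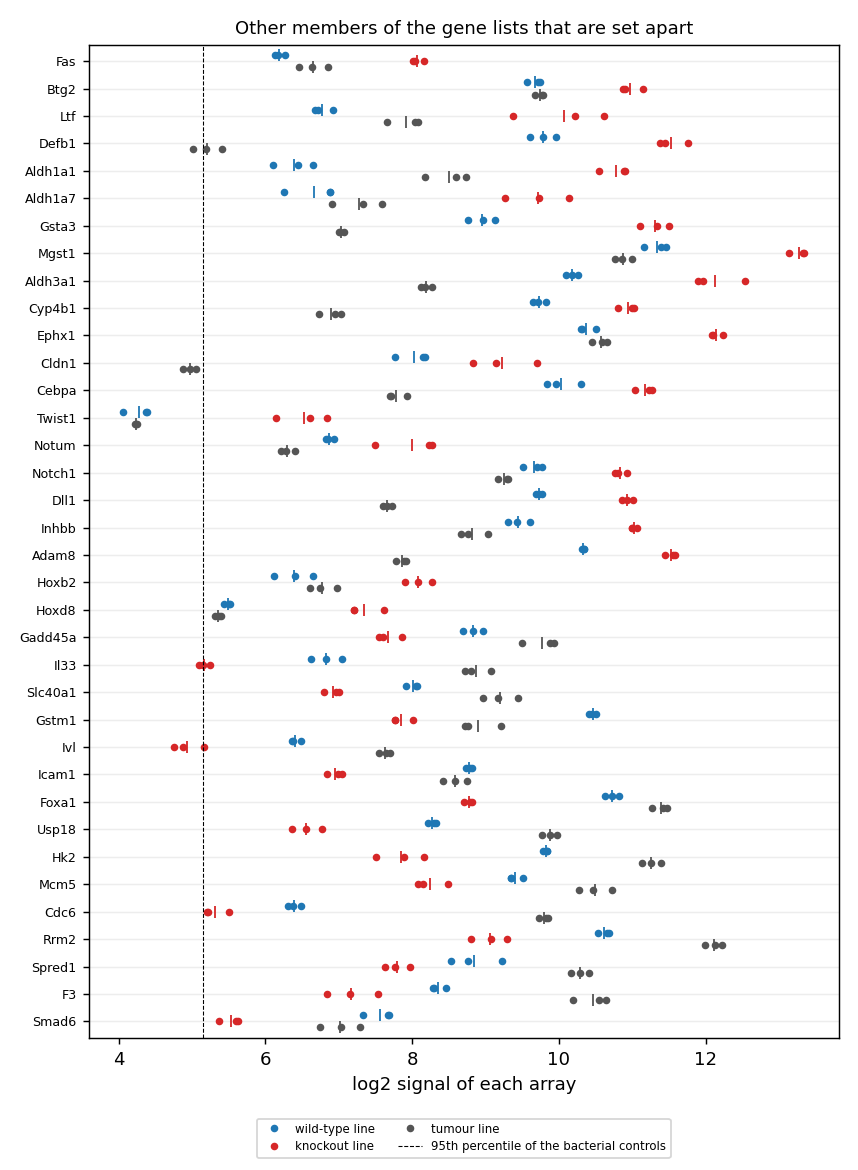
Log2 signal of each array (x axis) for the members of the gene lists that are set apart and are not among the 30 genes farthest out, above both lines from Fas to Hoxd8 and below both from Gadd45a to Smad6. Red points are the knockout line, blue the wild-type line, grey the tumour line, ticks are means, and the dashed line is the 95th percentile of the bacterial controls (5.15); Defb1 shows the widest gap between knockout (11.53) and tumour (5.21).

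The transcription factors and signalling genes that were set apart went both ways. Id2, which blocks the DNA binding of basic helix-loop-helix factors and marks distal lung progenitors in development, read 6.26, 6.63 and 6.54 on the knockout arrays, 9.59, 9.62 and 9.87 on the wild-type arrays and 9.97, 10.36 and 10.43 on the tumour arrays. Foxa1, a forkhead factor of airway and other endoderm, read 8.79, 8.81 and 8.71 on knockout arrays, 10.63, 10.82 and 10.73 on wild-type arrays and 11.42, 11.27 and 11.47 on tumour arrays. Both were low in the knockout line alone, and in both the tumour line was within 1 log2 of the wild-type line. Cebpa, which promotes differentiation and restrains growth in lung epithelium, was highest in the knockout line, at 11.22, 11.04 and 11.27 on knockout arrays against 10.30, 9.83 and 9.96 on wild-type and 7.70, 7.93 and 7.71 on tumour arrays. It was 2.21-fold above the wild-type line and 10.5-fold above the tumour line. Of the 20 alveolar and lung lineage markers measured, these 3 were set apart, 1 above and 2 below.

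RefSeq promoters of GRCm38.p6, from 250 bases before to 50 after a start, were matched to 182 of the 234 members (113 above and 69 below) by gene ID and searched on both strands for 5 short motifs. A C/EBP-like pattern, TTGCNNNAA, was searched because Cebpa is among the genes above, and the antioxidant response element because NRF2 targets lay on both sides. TTGCNNNAA sets TTGC and AA a base farther apart than the C/EBP consensus does, so a match is not a C/EBP site. The letters TTGCNNNAA stood in 21 of the 113 genes above (18.6%), in 8.7% of those below and in 10.7% of the 27025 genes with a promoter in the table. The antioxidant response element letters TGACNNNGC stood in 14.2% of genes above, in 17 of the 69 below (24.6%) and in 14% of all. The AP-1 letters TGANTCA, which can overlap the former, stood in 10.6%, 14.5% and 8.97%. The shares for the forkhead letters TGTTTAC were 1.77%, 2.9% and 4.05%, and those for the TEAD letters GGAATG 16.8%, 11.6% and 16.6%. A match says only that these letters stand in the window, and no match says only that they do not.

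Promoters of 5 members are shown, for the letters TTGCNNNAA in Aldh1a1, Cp and Ephx1 above both lines and for the antioxidant response element in Gsta3 above and Me1 below. All are written 5′ to 3′ on the gene's strand, and capitals mark letters of any of the 5 motifs on either strand. In Aldh1a1 (chr19:20492333-20492632, plus strand) the capitals are TEAD, AP-1 and TTGCNNNAA in this order, and a second promoter of the gene holds none of the 5. In Cp (chr3:19956804-19957103, plus strand) they are AP-1, TTGCNNNAA and TEAD. Ephx1 (chr1:181017520-181017819, minus strand) holds 1 TTGCNNNAA match and Gsta3 (chr1:21240335-21240634, plus strand) 1 antioxidant response element. In Me1 (chr9:86695865-86696164, minus strand) the antioxidant response element and an AP-1 motif share letters.
Aldh1a1: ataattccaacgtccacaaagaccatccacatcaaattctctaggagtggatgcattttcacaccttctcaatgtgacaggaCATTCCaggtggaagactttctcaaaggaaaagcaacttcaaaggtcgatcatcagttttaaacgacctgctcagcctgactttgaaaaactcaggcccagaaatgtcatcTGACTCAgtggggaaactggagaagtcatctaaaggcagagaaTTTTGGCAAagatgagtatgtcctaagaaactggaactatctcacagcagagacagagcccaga
Cp: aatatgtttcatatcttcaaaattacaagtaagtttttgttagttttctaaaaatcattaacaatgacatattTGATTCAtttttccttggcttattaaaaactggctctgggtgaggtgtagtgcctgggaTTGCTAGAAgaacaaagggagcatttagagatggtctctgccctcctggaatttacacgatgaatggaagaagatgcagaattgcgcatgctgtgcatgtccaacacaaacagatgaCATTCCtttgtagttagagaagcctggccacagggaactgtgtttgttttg
Ephx1: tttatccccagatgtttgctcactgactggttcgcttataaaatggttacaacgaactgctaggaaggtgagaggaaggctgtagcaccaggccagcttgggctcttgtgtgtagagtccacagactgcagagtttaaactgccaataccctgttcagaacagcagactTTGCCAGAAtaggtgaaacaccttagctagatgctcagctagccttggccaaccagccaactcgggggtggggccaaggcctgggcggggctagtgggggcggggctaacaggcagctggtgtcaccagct
Gsta3: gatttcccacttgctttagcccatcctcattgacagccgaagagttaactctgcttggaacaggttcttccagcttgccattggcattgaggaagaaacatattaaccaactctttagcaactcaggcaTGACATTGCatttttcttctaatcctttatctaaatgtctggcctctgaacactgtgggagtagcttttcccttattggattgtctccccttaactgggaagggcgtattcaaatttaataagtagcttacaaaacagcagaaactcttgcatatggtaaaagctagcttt
Me1: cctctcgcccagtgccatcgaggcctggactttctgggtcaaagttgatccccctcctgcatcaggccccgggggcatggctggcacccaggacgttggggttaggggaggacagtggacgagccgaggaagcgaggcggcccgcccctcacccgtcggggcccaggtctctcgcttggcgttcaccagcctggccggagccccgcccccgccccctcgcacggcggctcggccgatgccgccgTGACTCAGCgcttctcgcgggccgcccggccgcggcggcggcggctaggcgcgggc

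Hoxc4 read 9.04, 8.85 and 9.19 in the knockout line, 5.82, 5.84 and 6.19 in the wild-type line and 6.31, 6.26 and 6.26 in the tumour line. Hoxd8 (1.86 (SE 0.11) and 1.99 (SE 0.11)) and Hoxb2 (1.69 (SE 0.14) and 1.31 (SE 0.14)) were also above both, though the other probe set of Hoxd8 (0.70 and 0.53) was not set apart. These 3 homeobox genes specify position along the body axis, lie in 3 different clusters and were the ones set apart among 35 measured Hox genes and positional factors. Their cluster neighbours were not set apart: Hoxc5 differed by 0.70 and 0.76, Hoxc6 by 0.14 and 0.06, Hoxb3 by 0.44 and 0.61 and Hoxd9 by 0.53 and 0.66. Over that list 3 genes were higher and 4 lower than in the wild-type line, and 12 higher and 0 lower than in the tumour line.

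In the Notch pathway the receptor Notch1 and its ligand Dll1 were above both lines and 0 of the 23 measured genes were below. Dll1 read 11.01, 10.93 and 10.86 on knockout arrays, 9.69, 9.73 and 9.76 on wild-type arrays and 7.60, 7.73 and 7.66 on tumour arrays, and Notch1 read 10.80, 10.93 and 10.77 on knockout arrays, 9.78, 9.70 and 9.51 on wild-type arrays and 9.29, 9.17 and 9.30 on tumour arrays. The knockout arrays were high in both. The target genes of the pathway were not set apart, with Hes1 differing by -0.02 and 0.82 and Hey1 by 0.10 and 0.15. Notum, an enzyme that inactivates Wnt proteins, was above both, at 8.23, 7.50 and 8.28 on knockout arrays against 6.94, 6.83 and 6.85 on wild-type and 6.21, 6.41 and 6.28 on tumour arrays. Its smaller difference was 0.99, just short of the threshold, without knockout replicate 3.

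Among 29 measured targets of p53, Fas, a death receptor, and Btg2, an antiproliferative gene, were above both lines and Gadd45a, a growth arrest gene, was below both. Fas read 8.02, 8.16 and 8.04 in the knockout line, 6.27, 6.13 and 6.17 in the wild-type line and 6.46, 6.63 and 6.85 in the tumour line. Btg2 read 10.90, 11.15 and 10.88 on knockout arrays, 9.56, 9.74 and 9.71 on wild-type arrays and 9.77, 9.68 and 9.78 on tumour arrays, and Gadd45a read 7.60, 7.55 and 7.86 on knockout arrays, 8.97, 8.70 and 8.83 on wild-type arrays and 9.94, 9.88 and 9.50 on tumour arrays. The knockout arrays were apart from the 6 others in all 3 genes. Against the wild-type line, 15 of the 29 were higher in the knockout line and 1 lower, with a median of 1.00. Against the tumour line, 5 were higher and 4 lower, with a median of 0.25. With 2 of the 29 set apart above, most of the 15 that were higher than in the wild-type line were not set apart. Ccng1 (2.15 from the wild-type line and 0.02 from the tumour line) and Zmat3 (2.73 and 0.25) are examples at a like level in the tumour line. How many of the 15 were at a like level there was not counted.

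Farthest below both lines was Krt19, a keratin of simple and glandular epithelia. It read 5.41, 5.52 and 5.02 log2 on the knockout arrays, 10.21, 10.19 and 10.26 on the wild-type arrays and 11.97, 12.25 and 11.94 on the tumour arrays, 29.9-fold and 107-fold lower in the knockout line. The knockout arrays were close to the background level while the other lines were bright. Its usual partners did not share this pattern: Krt8 differed by 0.98 from the wild-type line and -1.33 from the tumour line, and Krt18 by 2.55 and -3.50. Krt23, another keratin, read 6.996, 6.42 and 6.54 in the knockout line, 10.27, 10.21 and 9.97 in the wild-type line and 8.87, 8.85 and 8.98 in the tumour line. Of 27 measured simple epithelial keratins and junction genes, Krt19 was below and the tight junction gene Cldn1 above. Claudins outside that list, named after their values were seen, went both ways. Cldn6 (1.12 and 3.86) and Cldn23 (1.73 and 1.48) were above both lines and Cldn8 (-1.81 and -1.50) was below both. Cldn1 read 8.83, 9.71 and 9.14 on knockout arrays, 7.77, 8.17 and 8.14 on wild-type arrays and 4.88, 4.98 and 5.05 on tumour arrays. Its smaller difference was 0.95 without knockout replicate 2 and 0.29 with the mean of its probe sets, both short of the threshold.

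Igfbp7, a secreted protein that binds insulin-like growth factors, read 6.60, 5.52 and 6.32 in the knockout line, 11.09, 10.79 and 11.01 in the wild-type line and 12.20, 12.32 and 12.08 in the tumour line. The difference was -4.81 (SE 0.20) from the wild-type line and -6.05 (SE 0.20) from the tumour line, 28.1-fold and 66.3-fold lower. Its other 2 probe sets, which were dimmer, were not set apart. Scd1, the desaturase that makes monounsaturated fatty acids, read 6.79, 5.80 and 6.53 on knockout arrays, 11.41, 11.43 and 11.41 on wild-type arrays and 10.35, 10.84 and 10.56 on tumour arrays. It was 32.9-fold and 18.5-fold lower in the knockout line, and its other probe set was set apart too. Scd1 was the single gene set apart among 24 of sterol and fatty acid synthesis, whose medians were -0.23 and -0.21, and its paralog Scd2 differed by -0.02 and 0.10.

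Some cytokine and leukocyte adhesion genes lay below both lines, while others, such as Ccl28 and Il7, lay above. Ppbp, the neutrophil chemokine also called Cxcl7, read 6.81, 7.21 and 7.07 on the knockout arrays, 11.27, 11.26 and 11.17 on the wild-type arrays and 12.26, 12.24 and 12.17 on the tumour arrays, 18.5-fold and 36.6-fold lower. Il33, an epithelial alarm cytokine, read 5.15, 5.10 and 5.24 on knockout arrays, 6.83, 6.63 and 7.04 on wild-type arrays and 8.73, 8.80 and 9.07 on tumour arrays. Icam1, the receptor on which leukocytes arrest, read 6.83, 6.98 and 7.05 on knockout arrays, 8.74, 8.81 and 8.79 on wild-type arrays and 8.59, 8.42 and 8.74 on tumour arrays. The knockout arrays were low in all 3 genes, with Il33 at the background level there. Il33 and Icam1 were also the 2 genes set apart among 20 airway basal cell markers, whose medians were -0.06 from the wild-type line and 2.99 from the tumour line. Ppbp and Il33 were 2 of the 25 measured neutrophil and monocyte chemokines and cytokines, of which 0 were set apart above. Over that list 3 genes were higher and 3 lower than in the wild-type line, and 2 higher and 7 lower than in the tumour line. The related chemokine Cxcl5 was not set apart, at 5.50 from the wild-type line and 0.20 from the tumour line. Usp18, a brake on interferon signalling, was the single gene set apart of 29 interferon-stimulated genes (-1.72 and -3.31). Ptgs2, the inducible prostaglandin synthase, named after its values were seen, was also lower (-1.33 and -2.04).

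Of the genes below, 3 act in coagulation, a grouping made after their values were seen and tested as no list. F2r, the thrombin receptor, read 6.11, 5.82 and 5.98 in the knockout line, 7.93, 8.10 and 8.19 in the wild-type line and 12.38, 12.50 and 12.48 in the tumour line. F3, tissue factor, which starts coagulation, read 7.53, 7.16 and 6.84 on knockout arrays, 8.46, 8.29 and 8.30 on wild-type arrays and 10.65, 10.19 and 10.55 on tumour arrays. Thbd, thrombomodulin, which binds thrombin, read 4.22, 4.67 and 5.20 on knockout arrays, 6.38, 6.50 and 6.44 on wild-type arrays and 9.73, 9.59 and 9.95 on tumour arrays and was named after its values were seen. In all 3 genes the knockout line was lowest and the tumour line highest, with the wild-type line between and no overlap. F2r was 4.28-fold below the wild-type line and 89.4-fold below the tumour line.

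The growth genes below both lines were carried by the tumour line at a higher level than by the wild-type line. Rrm2, a subunit of the enzyme that makes deoxynucleotides, read 9.30, 8.80 and 9.08 on knockout arrays, 10.53, 10.65 and 10.68 on wild-type arrays and 11.99, 12.23 and 12.13 on tumour arrays. Cdc6, which loads the replicative helicase, read 5.21, 5.22 and 5.51 on knockout arrays, 6.31, 6.48 and 6.38 on wild-type arrays and 9.86, 9.73 and 9.82 on tumour arrays, and Mcm5, a subunit of that helicase, differed by -1.16 and -2.24. The knockout arrays were lowest in each. Of 36 measured genes of DNA replication and mitosis, these 3 were set apart below. They were also the only 3 of the list lower than in the wild-type line, where the median was -0.25, while 33 were lower than in the tumour line, with a median of -2.22. Hk2, hexokinase 2, the first step of glycolysis, read 7.88, 8.16 and 7.51 on knockout arrays, 9.84, 9.79 and 9.84 on wild-type arrays and 11.13, 11.40 and 11.25 on tumour arrays and was the one gene set apart of 27 of glycolysis and hypoxia response. Spred1, an inhibitor of Ras signalling, differed by -1.05 (SE 0.15) from the wild-type line, and its smaller difference was -0.86 without wild-type replicate 2 and -0.97 without knockout replicate 3.

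The cornified envelope genes, which keratinocytes switch on when they differentiate, show the other side of the rule. Of 44 measured, 30 were lower in the knockout line than in the wild-type line and 0 higher, with a median of -2.19. Against the tumour line 18 were higher and 1 lower, with a median of 0.36, so 1 of the 44, the envelope precursor Ivl, was set apart. Ivl read 4.76, 4.88 and 5.16 in the knockout line, 6.37, 6.49 and 6.37 in the wild-type line and 7.71, 7.64 and 7.56 in the tumour line. Its other probe set was not set apart, and the mean of both gave a smaller difference of -0.73. Outside that list, Crct1, a gene of the epidermal differentiation complex (-3.99 and -1.03), and Padi1 (-1.84 and -3.17) were below both lines. These were named after their values were seen. Krt1 (-4.18 and 0.23) is an example of the genes that were low in the knockout line without being below the tumour line. Padi4, an enzyme that converts arginine to citrulline in proteins and not on that list, was among the 15 genes farthest below, at 5.40, 5.75 and 5.50 on knockout arrays against 8.82, 8.93 and 8.60 on wild-type and 10.62, 10.69 and 10.61 on tumour arrays.

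The remaining genes among the 15 farthest below were Tspan13, a tetraspanin (-2.81 and -3.37), Cap1, an actin regulator (-2.64 and -3.42), the adhesion molecule Alcam (-2.59 and -4.45, 4 of its 5 probe sets set apart) and the zinc importer Slc39a4 (-2.43 and -4.12). They also included Pgap1, a GPI anchor enzyme (-2.24 and -3.61), the acyl-CoA synthetase Acsbg1 (-2.14 and -2.60) and Cmtm3 (-2.17 and -2.11). Prune2 was among the 15 farthest above (2.55 and 3.26). Gfra2, a receptor for neurturin (2.77 and 4.44), and Serpinh1, a collagen chaperone (-3.10 and -3.41), differed by as much but were read from probe sets marked as open to cross-hybridisation. The gene lists held 804 measured genes in all, of which 26 were set apart above and 20 below, and 12 of the 38 lists held none. The lists without any included the secretory, smooth muscle, cartilage, leukocyte and endothelial markers, the cathepsins, MHC class I genes, S100 proteins and imprinted genes.

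How far the tumour line had returned to the wild-type level varied. Among the 146 genes above, the tumour mean was within 1 log2 of the wild-type mean for 98 (67.1%), lower than it by 1 log2 or more for 38 (26%) and still raised toward the knockout line by 1 log2 or more for 10 (6.85%). Among the 88 below, the counts were 52 (59.1%), 31 (35.2%) and 5 (5.68%). Over all genes 83.4% were within 1 log2 between these lines. The tumour mean was closer to the wild-type mean than to the knockout mean for 140 of the 146 and 84 of the 88. The rule itself keeps the tumour line at least 1 log2 away from the knockout line, so these shares describe the set and are not a test. The median tumour minus wild-type difference was -0.29 above and 0.56 below.

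Of the 15 genes farthest above, 13 were within 1 log2 of the wild-type line in the tumour line. Sncg differed between those lines by 0.08, Ces1g by 0.03 and Timp3 by 0.14. Of the 15 farthest below, 7 were within 1 log2, among them Cmtm3 (-0.06), Acsbg1 (0.46) and Id2 (0.56), and 7 were beyond the wild-type level, among them Krt19 (1.83) and F2r (4.38). The genes that stayed partly raised in the tumour line included Lcn2, Ltf and Aldh1a1, and 3 named after their values were seen. Tceal8, an X-linked gene, read 10.25, 10.19 and 10.29 in the knockout line, 5.74, 5.74 and 5.51 in the wild-type line and 8.12, 7.78 and 7.84 in the tumour line. The desmosomal cadherin Dsg2 read 11.14, 10.84 and 11.02 on knockout arrays, 7.04, 7.16 and 7.14 on wild-type arrays and 9.50, 9.64 and 9.74 on tumour arrays, and Tmem47 read 9.39, 9.22 and 9.38 on knockout arrays, 4.48, 4.18 and 4.41 on wild-type arrays and 8.42, 7.99 and 8.41 on tumour arrays. The tumour line lay between the others without overlap in all 3 on these probe sets. The other probe set of Tmem47 differed by 3.78 from the wild-type line and by -0.07 from the tumour line, so it was not set apart, and 3 of the 6 probe sets of Dsg2 were set apart. The tumour mean lay far beyond the wild-type mean for Defb1 (-4.58) and, upward, for F2r (4.38). For Defb1 the tumour arrays were at about the background level, which limits the size of its difference.

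**Figure D4:**
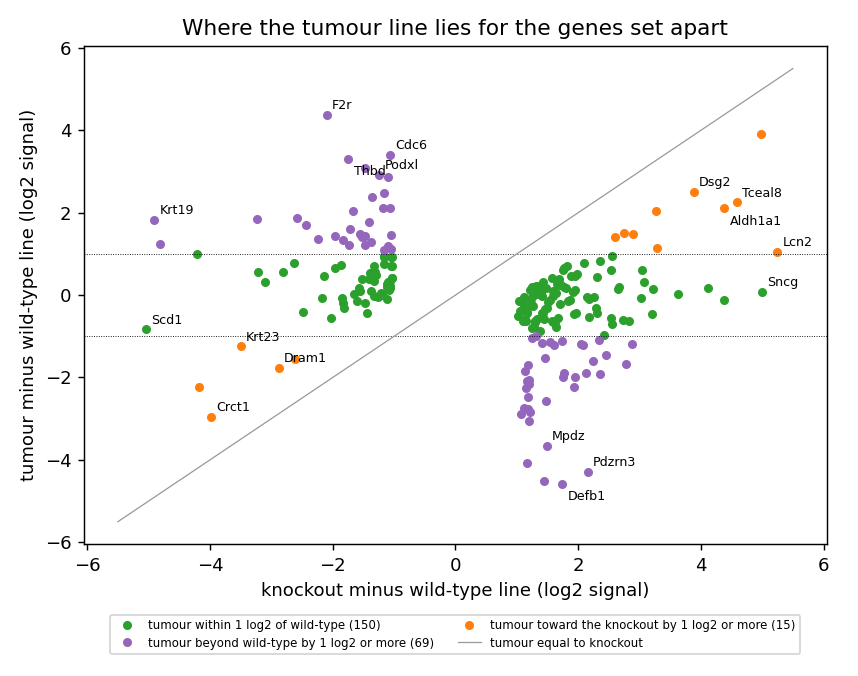
Each point is 1 of the 234 genes set apart, placed by the knockout minus wild-type difference (x axis) and the tumour minus wild-type difference (y axis), both in log2 signal. Green points (150) lie within 1 log2 of the wild-type line in the tumour line, purple points (69) beyond it and orange points (15) toward the knockout line, and the grey diagonal marks equal tumour and knockout levels.

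The members were then placed in gene order along the chromosomes of the RefSeq assembly GRCm38.p6. The probe sets' own build is not given in the sources used here, so only the order of genes and their chromosome were used. Of 18030 placed genes, 0.81% were set apart above and 0.483% below. Chromosome 4 held 16 of the genes above among 1087 (1.47%), chromosome 19 held 10 among 609 (1.64%) and chromosome X 9 among 617 (1.46%). Most of those on chromosome 4 stood close together. In the run from Kdm4c to Snapc3, whose ends were chosen after the values were seen, 10 of 16 measured genes were set apart above and 0 below. In 14 of the 16 at least 1 line was over the background level, and in all 14 the knockout mean was the highest. The margin was slight for Cer1 (0.06 from the wild-type line and 0.0013 from the tumour line) and Gm11267 (0.08 and 0.10). No share over all genes is set beside this count. The medians over the run were 1.42 log2 against the wild-type line and 1.59 against the tumour line.

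Within the run, Dmac1, a factor for assembly of mitochondrial complex I, read 12.09, 12.06 and 12.21 on the knockout arrays, 10.26, 10.13 and 10.45 on the wild-type arrays and 10.18, 10.23 and 10.03 on the tumour arrays. Snapc3, a subunit of the complex that starts transcription of small nuclear RNAs, read 10.65, 10.77 and 10.54 on knockout arrays, 8.68, 8.72 and 8.67 on wild-type arrays and 8.11, 8.13 and 8.50 on tumour arrays. Kdm4c, a histone demethylase, read 9.13, 9.15 and 9.14 on knockout arrays, 7.37, 7.43 and 7.59 on wild-type arrays and 6.99, 6.62 and 7.11 on tumour arrays. The knockout arrays were high in each of these, and no array of the other lines reached them. Nfib, a transcription factor of lung development, was higher by 1.39 (SE 0.12) and 1.24 (SE 0.12), and 6 of its 7 probe sets were set apart. Lurap1l (2.30 and 2.60), the palmitoyltransferase Zdhhc21 (1.71 and 1.93), Ttc39b (2.09 and 3.29), Mpdz, 2310067E19Rik and Gm11266 completed the 10. Gm11266 read 4.48, 4.85 and 6.23 on the knockout arrays, so only replicate 3 lay over the background level. Mpdz, a scaffold of tight junctions, lay under the background level in the tumour line. It was higher by 1.49 log2 than in the wild-type line and at least 21.9-fold higher than in the tumour line, and its other 3 probe sets were not set apart. Of the 6 genes of the run that were not set apart, Ptprd differed by 0.65 and 0.50, and Tyrp1 by 0.06 and 0.18.

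The promoter of Snapc3 (RefSeq GRCm38.p6, chr4:83417474-83417773, plus strand) is shown for the last gene of the run, with capitals as for the promoters above. Its capitals are a TTGCNNNAA match and then an antioxidant response element.
Snapc3: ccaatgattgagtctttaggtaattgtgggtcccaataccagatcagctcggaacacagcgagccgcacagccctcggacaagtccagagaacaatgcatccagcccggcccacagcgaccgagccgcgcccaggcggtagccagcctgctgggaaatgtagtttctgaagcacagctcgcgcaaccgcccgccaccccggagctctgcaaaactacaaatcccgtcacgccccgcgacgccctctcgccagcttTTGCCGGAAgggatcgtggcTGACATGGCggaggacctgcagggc

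The run had no equal elsewhere in the genome by this count. In 17741 windows of 15 consecutive measured genes, 47 held 3 or more genes above and 25 of these were on chromosome 4, as were all 17 windows with 5 or more. The highest count was 9 on chromosome 4 and at most 3 on any other chromosome. Before the run, Hsdl2 (1.54 and 2.67) and Megf9 (1.48 and 4.05) were set apart too, at 52 and 8 measured genes from Kdm4c. Past the end of the run, the 12 genes from Psip1 to Rps6 held none set apart, though Psip1 differed by 1.00 and 0.52. Farther along, from Tusc1 to Patj, none of 23 was set apart either. In 10 of the 17 over the background level the knockout mean was the lowest and in 1 the highest, with medians over those 17 of -0.58 and -0.29. The ends of this stretch were also chosen with the values known, and no share over all genes is set beside its count. DNA copy number was not measured in these arrays.

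**Figure D5:**
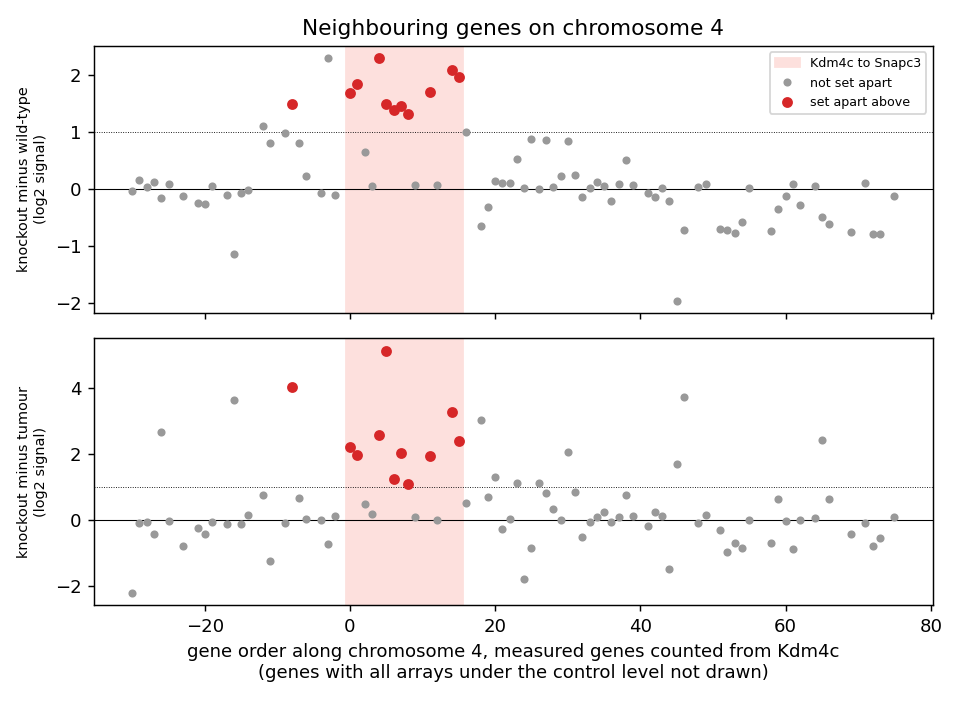
Knockout minus wild-type (upper panel) and knockout minus tumour (lower panel) difference in log2 signal for genes in order along chromosome 4, counted from Kdm4c, for genes with at least 1 line over the background level. Red points are genes set apart above, grey points are others, and the shaded run from Kdm4c to Snapc3 holds 10 of the 11 red points drawn, the other being Megf9; Hsdl2 lies before the stretch drawn.

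Smaller groups of neighbours were seen on 3 other chromosomes, picked in the same way after the values were seen. On chromosome 12, 4 of the 12 measured genes from Rrm2 to Sox11 were below both lines (Rrm2, Mboat2, Id2 and Sox11), the most in any window of 15. The genes between them did not all move, since Kidins220 differed by -0.51 and 0.58 and Rnf144a by -0.18 and 0.04. On chromosome 19, 4 of the 16 from Prune2 to Gda were above both (Prune2, Aldh1a1, Aldh1a7 and Gda). On chromosome 3, Pkia, Zc2hc1a and Il7 are consecutive and all 3 were above both. Chromosome 12 as a whole held 11 genes below among 622 (1.77%) and 3 above.

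Other probe sets of the same genes give a further reading that the rule did not use. Of the genes above, 72 have another single-symbol probe set. For 37 of these another probe set was set apart the same way, for 65 another had both differences of the same sign, and for 0 another was set apart the opposite way. Of the genes below, 48 have another, and the counts were 15, 40 and 0. A gene was counted if any of its other probe sets met the condition, so genes with more probe sets had more chances. The same counts over all genes with several probe sets are not given here, so these describe the set and are not a test.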

How the data were processed

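Total RNA was isolated on RNeasy columns with DNase digestion, checked by its 28S to 18S ratio on a Bioanalyzer, transcribed in vitro to biotinylated cRNA and hybridised, per the labels' protocols. The values are the deposited log2 signals of 45101 probe sets on 9 arrays. How the authors corrected background, summarised probes and normalized arrays is not given in the sources used here, and the values were used as deposited. Arrays carry no read depth, so their number limits the precision.

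Of the probe sets, 64 are controls, 34945 carry 1 symbol in GEO's platform annotation, 932 several and 9160 none, and 34741 were matched to RefSeq by Entrez ID. The brightest single-symbol probe set was kept for each of 18193 genes. limma 3.58.1 in R 4.3.3 fitted 1 mean per line to all 9 arrays (6 residual degrees of freedom), with moderated tests (eBayes) and Benjamini-Hochberg adjustment over all genes. The threshold was an adjusted p of 0.05 and 1 log2. A fold against a line whose 3 arrays all lay under the control level (log2 5.15) was computed against that level and is a lower bound. Scripts were tested on simulated data.

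The named genes are Gprc5a, the 15 genes above and 15 below with the largest smaller difference (no clone names, no _x_at probe sets, no overlapping arrays), up to 6 genes set apart per list, and the 3 nearest the threshold on each side. Others are said to be chosen after their values were seen, or are list members given as examples. The members, the 38 gene lists and the control level were chosen with earlier results of these data known. Same-numbered replicates did not deviate together (correlations of -0.142 to 0.119), so no pairing was used. The alternatives were other normalizations, filters, probe-set rules and fits, fold thresholds, a replicate block and leaving out each array.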

Additional observations from a re-analysis of the deposited data

Results flagged for a closer look

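Probe sets without a single gene symbol took no part in the comparisons, and some of them were set apart by the same rule. Of 10092 such probe sets, 41 lay above and 17 lay below both other lines in the knockout line. Among these, 1431214_at, with no symbol, differed by 4.19 from the wild-type line and 5.42 from the tumour line, and 1435605_at by 3.38 and 4.70. The probe set 1421571_a_at, which carries the symbols of both Ly6c2 and Ly6c1, differed by -2.98 and -3.12. With 3 arrays per line, no group was large enough to be searched for single outlying arrays.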

How the results depend on the processing

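With a 1.5-fold threshold, 402 genes lay above and 340 below both lines, 2178 differed between the knockout and wild-type lines, 4881 between the knockout and tumour lines, and 531 of the genes set apart had the tumour line within 1 log2 of the wild-type line. With a 4-fold threshold these counts were 36, 17, 231, 821 and 31. Leaving out 1 array at a time gave 148 to 163 genes above, 83 to 97 below, 885 to 904 against the wild-type line, 2552 to 2637 against the tumour line and 151 to 165 with the tumour line near the wild-type line. Quantile normalization gave 167 above and 82 below, averaging each gene's probe sets 136 and 66, leaving out the dimmest 40% of probe sets 126 and 88 of 13362 genes, and array weights 157 and 88. With replicate number as a block the counts were 146 and 88, and the block ended no call. Replicate number is balanced over the lines, so the block left each difference unchanged and could end a call only through its p. Of 66 named genes, none reversed under any alternative run. The smaller difference fell short of 1 log2 for Gstm1 under quantile normalization (-0.99), array weights (-0.98), no _x_at or _s_at probe sets (-0.94) and the mean of probe sets (-0.82), for Spred1 under quantile normalization (-0.99) and the mean (-0.77), and for Mcm5 under the mean (-0.79). The causes were not tested. Alternatives chosen after seeing the data, raising all signals to the control level and reading every probe set alone, gave 142 above and 87 below, and 213 and 113 genes. Each genotype is 1 line, replicates may be technical, and signals near the control level set only bounds.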
